A study of Mus musculus with 19 samples.

Results

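The genes described here are 10 of the 26506 genes in the count table: the lipid droplet genes Hsd17b13, Hsd17b11, Plin2, Plin4, Plin5, Cidec, G0s2, Pnpla2 and Pnpla3, and the lipoprotein receptor gene Vldlr. Of these, 8 were taken for their function at the droplet, as coat proteins, enzymes and lipases. Hsd17b13 and Vldlr were taken because their knockout effects pointed apart between kidney and liver, so their knockout effects are given below as values with standard errors and without a test. Each gene was found in the table by its Ensembl identifier, and all 10 were present.

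Lipid droplets store triacylglycerol and sterol esters under a phospholipid monolayer, and perilipins on that monolayer control the access of lipases. Pnpla2, also called adipose triglyceride lipase, starts triacylglycerol hydrolysis, Abhd5 activates it and G0s2 inhibits it, while Cidec drives the exchange and fusion that enlarge droplets. Hsd17b13 is a droplet-bound dehydrogenase best known from hepatocytes, and Vldlr takes up apolipoprotein E-rich particles, mainly in muscle, heart and fat, and is normally low in liver.

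Whole kidney and liver of male mice were profiled by poly(A) RNA sequencing. Knockout mice lacked macroH2A1.1, a splice isoform of the histone variant gene H2afy: floxed exon 6b had been excised by Cre protein in zygotes, and the line was backcrossed to C57BL/6J for at least 10 generations. Knockout and wild-type mice came from heterozygous matings. The groups were 5 knockout kidneys and 5 knockout livers (mice 13, 14, 15, 16 and 18), 5 wild-type kidneys (mice 19, 20, 22, 23 and 24) and 4 wild-type livers (mice 19, 20, 22 and 24). The liver of mouse 23 was not analysed here. The protocol names a standard and a ketogenic diet, but the labels do not say which mouse received which, and they give no ages. Sample titles carry a number that is taken here as the mouse; the labels do not say so in words, and p-values below reflect library-to-library spread alone.

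Library totals were 25919138 to 35131720 counts in kidney and 26084473 to 34806035 in liver. Levels are depth-scaled counts (CPM) after TMM scaling, which aligns libraries on the bulk of their genes. Each tissue matched its label: 12 hepatocyte markers together reached 186632 to 227371 CPM in livers but 863 to 1136 CPM in kidneys. A list of 12 kidney tubule markers, mainly of the proximal tubule but with Umod, reached 26251 to 32703 CPM in kidneys. In livers it reached 1162 to 1723 CPM, most of it Slc27a2 (1076 to 1625 CPM). H2afy stood at 41.3 ± 3.27 CPM in knockout and 62.1 ± 7.75 CPM in wild-type kidney (SD, n = 5 each), and at 66.5 ± 6.33 CPM (SD, n = 5) against 102 ± 20.2 CPM (SD, n = 4) in liver. These counts cover the whole gene, most of it outside the deleted exon, and do not check the isoform. The library labelled wild-type 24 lay nearest to the knockouts, at 48.8 CPM in kidney and 73.8 CPM in liver. Every knockout library lay below every wild-type library of its tissue. H2afy did not pass the edgeR test in kidney (log2 fold change -0.58, adjusted p = 0.135) or liver (-0.61, adjusted p = 0.384). It passed with DESeq2 in kidney (adjusted p = 9.14e-05) and liver (adjusted p = 0.0212), and with edgeR and no filter in kidney (adjusted p = 0.0390) but not in liver (adjusted p = 0.159).

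Hsd17b13 and Hsd17b11 are neighbours on GRCm38 chromosome 5, both on the minus strand: Hsd17b13 lies at chr5:103955440-103977410 and Hsd17b11 at chr5:103989762-104021919. A gap of 12351 bp separates them and holds 1 annotated gene, the processed pseudogene Gm8200. The longest run of bases shared by their transcripts was 20 bases. Vldlr lies at chr19:27216484-27254231 and Pnpla2 at chr7:141455198-141460743 on the plus strand, as does Pnpla3 (chr15:84167837-84187236), whose exons overlap Gm49513. Plin2 (chr4:86648386-86670060), Cidec (chr6:113424634-113435760) and G0s2 (chr1:193272161-193273217, inside the span of Lamb3 without shared exons) are on the minus strand. The 250 bases upstream of the RefSeq start site of these genes (GRCm38.p6) are shown because these neighbours differed in tissue pattern and Vldlr ran opposite to Hsd17b13. Windows are chr5:103977389-103977638 (minus strand), chr5:104021797-104022046 (minus strand) and chr19:27216234-27216483 (plus strand), each written 5′ to 3′ on the gene's strand. Capitals mark matches to the motifs searched.
Hsd17b13: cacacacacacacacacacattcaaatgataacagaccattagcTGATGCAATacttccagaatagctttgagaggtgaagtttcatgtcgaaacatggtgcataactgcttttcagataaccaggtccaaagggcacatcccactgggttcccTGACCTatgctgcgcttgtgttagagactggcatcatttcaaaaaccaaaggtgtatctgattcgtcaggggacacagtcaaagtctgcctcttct
Hsd17b11: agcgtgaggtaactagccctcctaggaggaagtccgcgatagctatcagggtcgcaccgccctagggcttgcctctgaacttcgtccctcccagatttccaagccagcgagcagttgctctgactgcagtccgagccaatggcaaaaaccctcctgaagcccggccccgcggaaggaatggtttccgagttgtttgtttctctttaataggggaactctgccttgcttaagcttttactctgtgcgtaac
Vldlr: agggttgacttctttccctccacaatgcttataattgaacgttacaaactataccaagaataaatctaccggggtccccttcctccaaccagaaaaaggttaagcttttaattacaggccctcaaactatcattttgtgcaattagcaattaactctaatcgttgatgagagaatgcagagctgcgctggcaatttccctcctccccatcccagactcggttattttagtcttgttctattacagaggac
In the Hsd17b13 window, TGATGCAAT begins 206 bases before the start site and matches TGATGNAAT, a composite C/EBP and ATF motif that 0.825% of all 27025 promoter windows of this length held on either strand. TGACCT, the reverse complement of the nuclear receptor motif AGGTCA, begins 96 bases before the start site; 13.8% of all windows held that motif. The Plin2 and Plin5 windows also held AGGTCA, at 218 bases (reverse strand) and 170 bases before the start. None of the 9 motifs searched was found in the windows of Hsd17b11, Vldlr or the other 5 members. The other motifs, searched on both strands, were direct repeats of AGGTCA spaced by 1 base (in 0.0370% of all windows) or by 4 bases (0.0111%), both of which contain AGGTCA, the E-box CACGTG (6.05%), the hypoxia core ACGTG, contained in it (16.6%), the sterol element TCACNCCAC (1.04%), the HNF4 core CAAAGTCCA (0.381%) and the TATA box TATAAA (13%). A match describes letters in a window and not a bound site.

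Hsd17b13 was a liver gene with a trace in kidney. Liver levels were 522, 572, 731, 619 and 762 CPM in knockouts (mice 13, 14, 15, 16 and 18) and 705, 564, 513 and 631 CPM in wild types (mice 19, 20, 22 and 24), so the genotypes overlapped. The means were 641 ± 103 CPM (SD, n = 5) and 603 ± 83.3 CPM (SD, n = 4), and the fitted log2 difference was 0.09 (SE 0.13). In kidney the gene rested on few counts: 17, 34, 21, 3 and 22 in the knockouts and 3, 7, 3, 1 and 1 in the wild types (mice 19, 20, 22, 23 and 24). Of the knockout kidneys, 4 stood above every wild type and that of mouse 16 lay within the wild-type range. Pooled, 97 knockout counts against 15 wild-type counts gave a ratio of 7.05 per library total. This ratio pools unlike mice and comes from the contrast that chose the gene, so it is a description.

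These kidney counts were too low for the filter used in the main kidney fit. Without a filter the log2 fold change was 2.74 (SE 0.57), and over the 9 fits that gave it a value it ran from 2.51 to 3.24. None of these fits left out mouse 13, 14, 15 or 18, the knockout kidneys with the most counts, because the gene then fell below the filter. That range therefore does not show how far the value rests on any of them. The liver effect minus the kidney effect was -2.63 (SE 0.53), with a range over settings of -3.16 (without mouse 20) to -2.27 (without mouse 14). Albumin (Alb), the most abundant hepatocyte transcript, stood at 3.64 to 7.0 CPM in 9 kidneys and at 30.4 CPM in the knockout kidney of mouse 13. At the median liver ratio of Hsd17b13 to Alb, the Alb counts of that kidney would carry 9.11 Hsd17b13 counts. The observed 17 were 1.87 times that. The other knockout kidneys held 24.4 (mouse 14), 22.6 (mouse 15), 2.43 (mouse 16) and 14.7 times (mouse 18) the count at the liver ratio, and wild-type kidneys 0.815 to 4.27 times. The part of liver RNA in these counts was not tested.

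Vldlr had the opposite pattern, high in kidney and low in liver. Knockout kidneys held 66.5, 49.9, 54.5, 56.6 and 49.3 CPM and wild-type kidneys 62.4, 61.5, 62.7, 49.1 and 65.3 CPM, with the genotypes fully intermixed. The means of 55.4 ± 6.96 and 60.2 ± 6.39 CPM (SD, n = 5 each) gave a log2 fold change of -0.11 (SE 0.10). Knockout livers held 5.0, 5.96, 1.86, 2.18 and 2.20 CPM and wild-type livers 0.952, 1.5, 1.09 and 0.747 CPM. Every knockout liver lay above every wild-type liver, but the knockouts fell into a high pair, mice 13 and 14, and a lower trio just above the wild types. The means were 3.44 ± 1.90 CPM (SD, n = 5) and 1.07 ± 0.32 CPM (SD, n = 4), and the fitted log2 difference was 1.68 (SE 0.40). This is the contrast that chose the gene; 1.62% of the 14591 genes tested in liver had groups that did not overlap.

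In counts, knockout livers held 45 to 133 Vldlr reads each (393 in all) and wild-type livers 14 to 32 (95 in all), a ratio of 3.20 per library total. Over 16 fits the log2 fold change in liver ran from 1.39, without mouse 14, to 1.88, without mouse 20. The liver effect minus the kidney effect was 1.79 (SE 0.38). Muscle is rich in Vldlr, and 8 skeletal muscle markers summed to 20.4, 1.57, 9.37, 6.80 and 12.3 CPM in knockout livers and to 3.35, 3.61, 1.76 and 4.11 CPM in wild-type livers. All 6 muscle markers tested in liver had positive log2 fold changes, with a median of 2.02 against 0.00 over all genes. None was called, and 5 had an unadjusted edgeR p below 0.05, against 4.17% of all 14591 genes tested in liver. Mylpf, a myosin light chain and the most abundant marker by its median, stood at 0.79 (SE 0.30, edgeR adjusted p = 1.0), while Myh1 was at 0 in 5 and Mb in 6 of the 9 livers. Of the pair of livers with the most Vldlr, that of mouse 13 had the highest muscle sum of the 9 livers and that of mouse 14 the lowest. The part of muscle RNA in the Vldlr levels was not tested. In whole tissue, a change in cell number and a change in RNA per cell cannot be told apart.

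**Figure D1:**
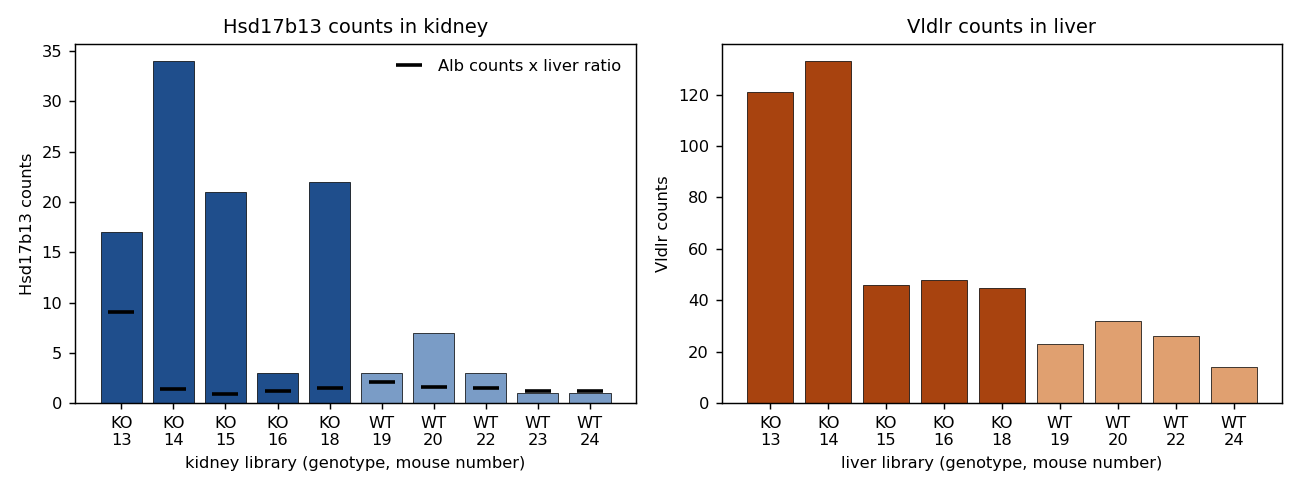
Counts of Hsd17b13 in each kidney library (left) and of Vldlr in each liver library (right), by genotype (KO, knockout; WT, wild type) and mouse number; horizontal marks on the left show the Hsd17b13 count at the liver ratio of Hsd17b13 to Alb. Knockout kidneys of mice 14, 15 and 18 stand at 34, 21 and 22 counts, above their marks, and the Vldlr counts of knockout livers 13 and 14 (121 and 133) stand apart from the other livers.

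Hsd17b11, the ubiquitous relative of Hsd17b13, was well expressed in both tissues. Knockout kidneys held 153, 221, 261, 195 and 213 CPM and wild-type kidneys 175, 171, 184, 139 and 152 CPM. In kidney 4 of 5 knockouts exceeded every wild type, and the knockout of mouse 13 lay among the wild types. With means of 209 ± 39.2 and 164 ± 18.2 CPM (SD, n = 5 each), the log2 fold change was 0.35 (SE 0.12) and did not pass the edgeR test (unadjusted p = 0.0104, adjusted p = 0.999). Livers held 237, 258, 278, 258 and 266 CPM in knockouts and 268, 248, 218 and 227 CPM in wild types, which overlapped (0.12 on the log2 scale, SE 0.09, adjusted p = 1.0).

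Among the coat genes, Plin2 is the perilipin of most non-fat cells. Kidney held 60.3, 58.6, 65.5, 58.1 and 57.6 CPM in knockouts and 72.3, 57.3, 56.7, 58.9 and 68.4 CPM in wild types, and liver 692, 610, 682, 490 and 717 CPM in knockouts and 765, 598, 907 and 662 CPM in wild types. Genotypes overlapped in both tissues, with log2 fold changes of -0.06 (SE 0.09) in kidney and -0.20 (SE 0.14) in liver. Plin5, which tethers droplets to mitochondria in oxidative tissues, stood at 3.52 to 4.01 CPM in knockout and 2.69 to 3.97 CPM in wild-type kidneys, and at 98.5, 44.0, 53.8, 64.2 and 47.6 CPM in knockout livers against 54.8, 49.3, 82.4 and 52.3 CPM in wild-type livers. Its log2 fold changes were 0.17 (SE 0.14) in kidney and 0.05 (SE 0.24) in liver.

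Plin4, a perilipin typical of adipocytes and muscle, varied widely between mice. Kidney levels were 12.4, 23.7, 21.4, 32.9 and 10.8 CPM in knockouts and 9.15, 24.5, 18.1, 32.5 and 14.4 CPM in wild types, so both genotypes covered the same wide span. In liver, knockouts held 33.7, 7.03, 8.08, 8.25 and 13.6 CPM and wild types 6.54, 8.26, 17.1 and 8.0 CPM, with mouse 13 far above the other livers. The log2 fold changes were 0.04 (SE 0.39) in kidney and 0.50 (SE 0.53) in liver; without mouse 13 the liver value was -0.12, and without mouse 22 it was 0.90. Plin4 (chr17:56100591-56109803, minus strand) ends 1797 bp from Plin5 (chr17:56111601-56117596, minus strand), with no gene between. Exons of Plin4 overlap those of Hdgfl2 on the opposite strand, and because the strand setting of the counting is not given in the sources used here, reads of the pair may not be fully separated.

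Cidec, the droplet fusion gene, ranged as widely in kidney: 10.8, 26.6, 29.9, 46.4 and 19.2 CPM in knockouts and 14.2, 35.6, 21, 37.6 and 17 CPM in wild types. In liver it lay at 3.72 to 7.05 CPM in knockouts and 4.10 to 7.28 CPM in wild types. Genotypes overlapped in both tissues, and the log2 fold changes were 0.08 (SE 0.41) in kidney and 0.17 (SE 0.23) in liver.

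Pnpla2, the lipase, was close to level across tissues and genotypes, at 104 to 138 CPM in knockout and 94.4 to 148 CPM in wild-type kidneys and at 77.9 to 135 CPM in knockout and 70.9 to 131 CPM in wild-type livers. Its log2 fold changes with knockout were 0.03 (SE 0.11) in kidney and 0.14 (SE 0.19) in liver. G0s2, its inhibitor, held 18.9, 28, 24.9, 28.1 and 28.6 CPM in knockout and 24.7, 39.8, 33.3, 26.8 and 20.1 CPM in wild-type kidneys (log2 fold change -0.16, SE 0.16). Knockout livers held 72.1, 44.8, 70.4, 95.5 and 61.1 CPM of G0s2 and wild-type livers 29.0, 64.5, 221 and 67.3 CPM. The liver of wild-type mouse 22 held more than any knockout, and that of wild-type mouse 19 less. The liver log2 fold change of G0s2 was -0.47 (SE 0.53) with all mice and 0.37 without mouse 22. Pnpla3, a hepatic and adipose lipase and acyltransferase, was low in both tissues here and higher in kidney. It stood at 1.47, 3.82, 1.12, 2.91 and 1.95 CPM in knockout and 0.809, 2.75, 1.39, 3.21 and 2.97 CPM in wild-type kidneys (log2 fold change 0.02, SE 0.39). In liver it rested on 2 to 11 counts per library, 21 in all knockouts and 18 in all wild types, a ratio of 0.901 per library total (exact 95% interval 0.457 to 1.79, counting error only). It was below the filter of the liver fit and was not tested there.

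**Figure D2:**
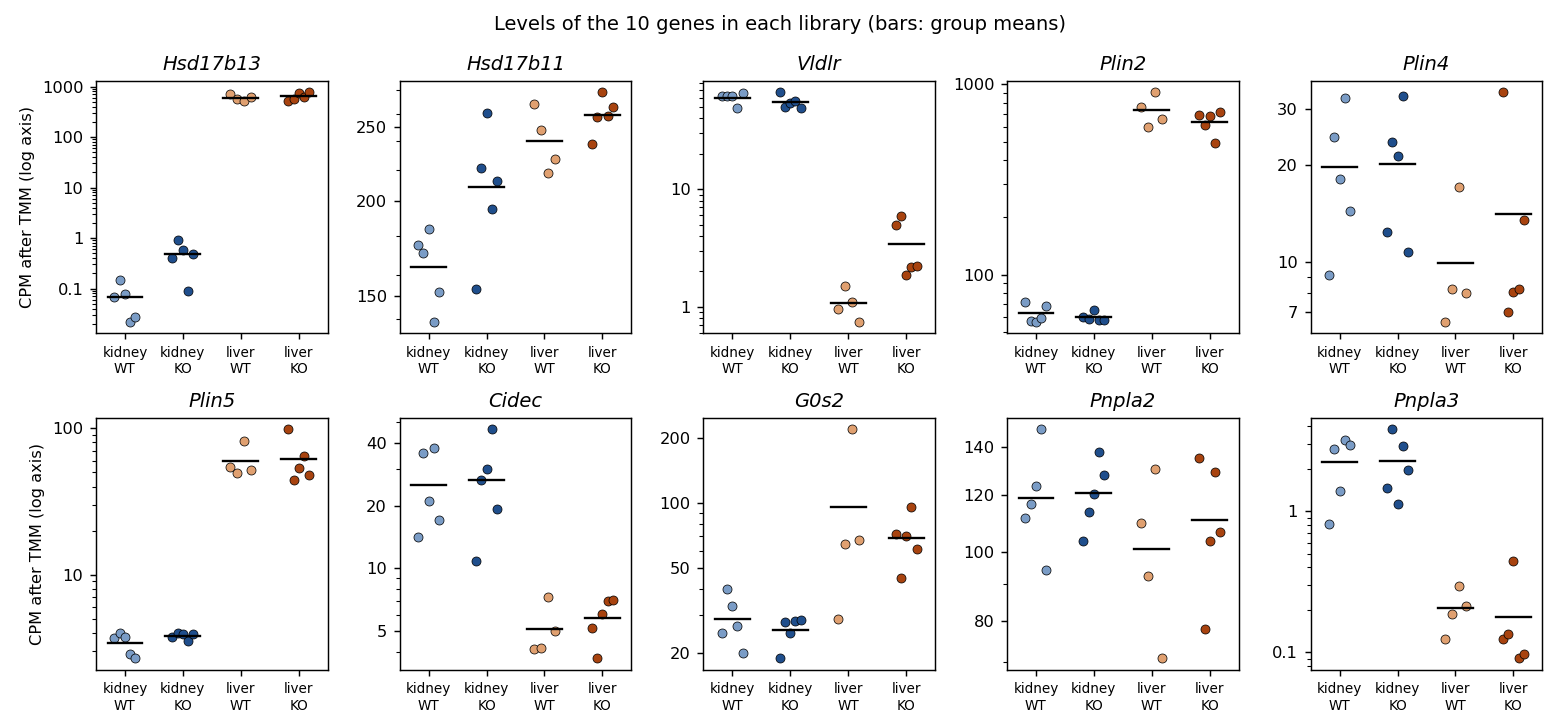
CPM after TMM scaling of each of the 10 genes (log axes, each panel with its own range) in the 19 libraries, grouped by tissue and genotype; points are libraries and bars are group means. Hsd17b13, Plin2 and Plin5 sit higher in liver, Vldlr, Cidec and Pnpla3 higher in kidney, and genotypes overlap in every panel except Vldlr in liver.

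Of the 8 genes taken for their function, none was called in kidney (8 tested), in liver (7 tested) or for the liver effect minus the kidney effect (8 tested), with edgeR or with DESeq2; at an unadjusted p below 0.05 there were 1 (Hsd17b11 in kidney), 0 and 0. Over all genes edgeR called 0.00579% of 17269 in kidney (1 gene), 0% of 14591 in liver and 0% of 18549 for the difference, DESeq2 called 15, 42 and 8 genes (0.0869%, 0.288% and 0.0431%), and unadjusted p fell below 0.05 for 2.95%, 4.17% and 4.12%. Adjusted p-values of the 8 genes from edgeR were all above 0.99 in these comparisons. The median of their log2 fold changes was 0.03 (kidney) and 0.12 (liver), against 0.01 and 0.00 over all genes tested. None of them had groups that did not overlap, which held for 0.544% of genes in kidney and 1.62% in liver. The kidney and liver effects come from the same numbered mice, and the difference shares its libraries with both.

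**Figure D3:**
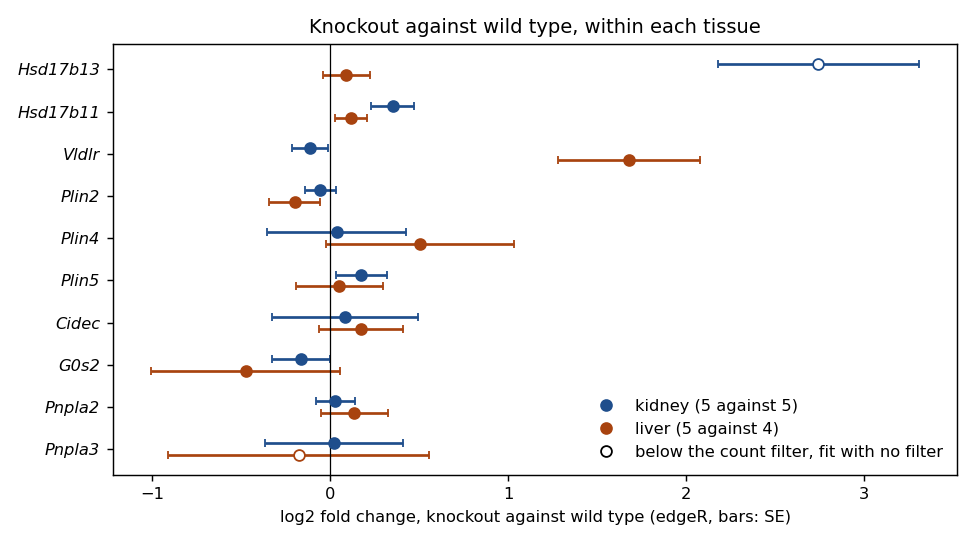
Log2 fold change, knockout against wild type, of each gene in kidney (5 against 5 libraries) and liver (5 against 4) with its standard error; open circles are genes below the count filter, from a fit with no filter. Hsd17b13 in kidney (2.74) and Vldlr in liver (1.68), the effects that chose these genes, stand apart, and the other values lie between -0.47 and 0.50.

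Liver and kidney were then compared within each genotype, a contrast that did not itself choose the members. For Hsd17b13 and Vldlr, however, its gap between the genotypes is the difference that chose them. Their tests here are therefore not independent of that choice. In wild types 5 of 10 genes were higher in liver and 3 lower by edgeR, against 33.9% and 41.6% of all 17428 genes (75.4% called in either direction). In knockouts the counts were again 5 and 3, against 33.9% and 39.8% of 16823 genes (73.8% called). The members' share of 8 in 10 is thus near the background, and the sizes carry the information. All 10 log2 fold changes had the same sign in both genotypes, which share no library. The share of all genes that kept their sign is not given here. With most genes called in each genotype, the 10 of 10 is not read as a result about these members.

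Higher in liver were Hsd17b13 (log2 fold change 12.97 in wild types, SE 0.23, edgeR adjusted p = 8.78e-16; 10.35 in knockouts, SE 0.34), Plin5 (4.13, SE 0.17, adjusted p = 3.84e-11; 4.02 in knockouts, SE 0.21) and Plin2 (3.55, SE 0.13, adjusted p = 2.87e-12; 3.42 in knockouts, SE 0.12). The Hsd17b13 value in wild types rests on 15 kidney counts, and its gap between genotypes is the difference that chose the gene. G0s2 was also higher in liver, by 1.72 in wild types (SE 0.56, adjusted p = 0.0242), where the groups overlapped, and by 1.43 in knockouts (SE 0.18, adjusted p = 3.53e-06). Without mouse 22 the wild-type value was 0.94, and the call was lost without mouse 23 (adjusted p = 0.0520), without mouse 24 (adjusted p = 0.0638) or with library totals (0.84, adjusted p = 0.197).

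Hsd17b11 was higher in liver by 0.55 in wild types (SE 0.10, adjusted p = 1.27e-04) and by 0.33 in knockouts (SE 0.12, adjusted p = 0.0270). This direction depended on scaling. With library totals in place of TMM the median gene moved from -0.14 to -1.03 in wild types and from -0.10 to -1.03 in knockouts, and Hsd17b11 stood at -0.34 (adjusted p = 0.00467) and -0.61 (adjusted p = 4.58e-04). The knockout call was also lost with no filter (0.29, adjusted p = 0.0520) and without mouse 14, 16 or 18 (adjusted p 0.0511 to 0.0929).

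Lower in liver were Vldlr (-5.80 in wild types, SE 0.16, adjusted p = 1.51e-13; -3.99 in knockouts, SE 0.30), Pnpla3 (-3.42, SE 0.49, adjusted p = 1.75e-05; -3.59 in knockouts, SE 0.48) and Cidec (-2.28, SE 0.36, adjusted p = 2.35e-04; -2.18 in knockouts, SE 0.33). Pnpla2 did not pass (-0.23, adjusted p = 0.216; -0.11 in knockouts, adjusted p = 0.475), but did with library totals (-1.12 and -1.05). Plin4 did not pass either (-0.98, adjusted p = 0.0639; -0.50 in knockouts, adjusted p = 0.358), but these calls depended on the setting. The wild-type value of Plin4 passed with DESeq2 (adjusted p = 0.0345), with library totals (-1.87, adjusted p = 0.00358), without mouse 19 (adjusted p = 0.0494) and without mouse 22 (-1.41, adjusted p = 0.0236). Its knockout value passed with library totals (-1.43, adjusted p = 0.0144) and without mouse 13 (-1.26, adjusted p = 0.00432).

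**Figure D4:**
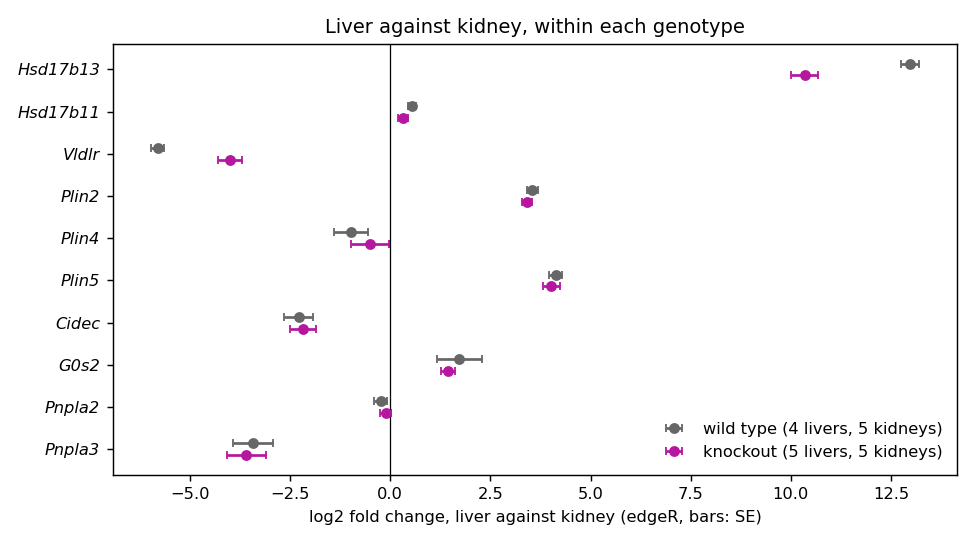
Log2 fold change of each gene in liver against kidney with its standard error, within wild types (4 livers, 5 kidneys) and within knockouts (5 livers, 5 kidneys). The genes keep their sign in both genotypes, from Hsd17b13 (12.97 and 10.35) to Vldlr (-5.80 and -3.99), with Pnpla2 nearest to 0.

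Per kilobase of exon, which allows genes to be compared, the wild-type liver was led by Hsd17b13 (280 ± 38.6 CPM per kb) and Plin2 (209 ± 38.4), followed by G0s2 (110 ± 98.1), Hsd17b11 (73.5 ± 6.88), Pnpla2 (33.4 ± 8.40) and Plin5 (28.6 ± 7.32; SD, n = 4 throughout). Cidec (2.77 ± 0.80), Plin4 (1.73 ± 0.83), Pnpla3 (0.132 ± 0.045) and Vldlr (0.106 ± 0.032) were low. The wild-type kidney was led by Hsd17b11 (50.3 ± 5.59), Pnpla2 (39.4 ± 6.54), G0s2 (33.2 ± 8.84), Plin2 (17.9 ± 2.03) and Cidec (13.5 ± 5.83; SD, n = 5 throughout). Vldlr (5.98 ± 0.63), Plin4 (3.41 ± 1.57), Plin5 (1.63 ± 0.28), Pnpla3 (1.44 ± 0.68) and Hsd17b13 (0.0321 ± 0.0235) followed. Neighbours in this order closer than the larger of their SDs were G0s2 and Hsd17b11, Pnpla2 and Plin5, and Pnpla3 and Vldlr in liver, and Pnpla2 and G0s2, Plin2 and Cidec, and Plin5 and Pnpla3 in kidney.

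The spread of Cidec and Plin4 between kidneys ran with adipocyte markers. Kidneys held fat cell transcripts: 12 adipocyte markers, of which Plin1 and Cidea are themselves droplet genes, summed to 249 to 836 CPM in knockouts and 302 to 725 CPM in wild types. Adiponectin (Adipoq) stood at 9.15 to 36.6 CPM in kidneys and at 0 to 0.392 CPM in livers, where Lep was at 0 in 8 of 9 libraries and the marker sum was nearly all Car3 (2304 to 3541 CPM). In kidneys Cfd, Car3 and Fabp4 had the highest medians (176, 160 and 118 CPM). Between wild-type tissues 9 of the 12 markers were lower in liver and 3 higher. Besides Car3, these were Adrb3 and Pparg (medians 27.6 and 8.56 CPM in livers, 10.6 and 3.14 CPM in kidneys). Across the 10 kidneys, after removing group means, Cidec followed the marker sum with r = 0.980 and rho = 0.964 (exact permutation within genotype, two-sided, n = 10, p = 3.47e-04 and 5.56e-04, adjusted p = 0.00312 and 0.00438 over 9 relations). Plin4 gave r = 0.910 and rho = 0.927 (exact permutation p = 9.03e-04 and 9.72e-04, adjusted p = 0.00406 and 0.00438). Without the 2 libraries farthest from the median, r was 0.959 and 0.928. Without mice 16 and 24, Plin4 did not pass (r = 0.887, exact permutation adjusted p = 0.0625).

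The other 7 members tested in kidney did not pass, and Hsd17b13 was below the filter there; r ran from -0.55 (Vldlr) to 0.63 (Pnpla3, adjusted p = 0.173 by exact permutation). With the marker sum as a covariate, the standard error of the knockout effect in kidney fell from 0.41 to 0.10 for Cidec and from 0.39 to 0.15 for Plin4, with effects of 0.01 and 0.03 that did not pass (edgeR adjusted p = 1.0). A doubling of the markers went with 1.14 log2 units of Cidec and 0.99 of Plin4. Both analyses were added after the values had been seen.

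**Figure D5:**
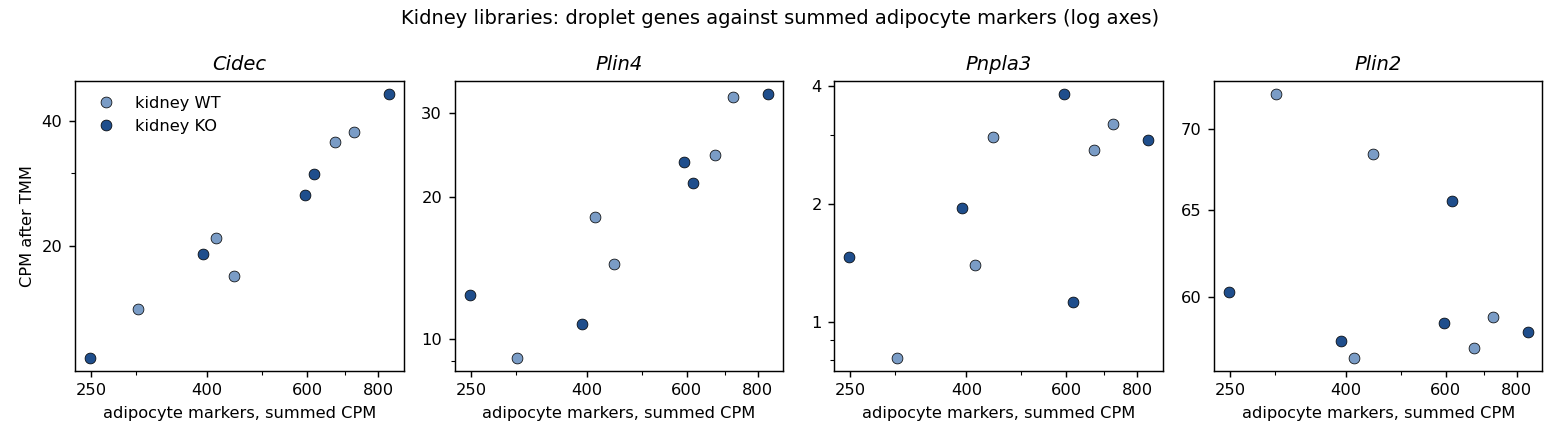
CPM of Cidec, Plin4, Pnpla3 and Plin2 against the summed CPM of 12 adipocyte markers in the 10 kidney libraries (log axes), coloured by genotype. Cidec and Plin4 rise along the marker sum in both genotypes (r = 0.980 and 0.910 after removing group means), Pnpla3 scatters more (0.63), and Plin2 does not rise with it (-0.37).

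In liver, wild-type mouse 22 had the highest wild-type liver level of 7 of the 10 genes (Plin2, Plin4, Plin5, Cidec, G0s2, Pnpla2 and Pnpla3) and the lowest of the dehydrogenases Hsd17b13 and Hsd17b11. Knockout mouse 14 had the lowest knockout liver level of 5 genes (Plin4, Plin5, Cidec, G0s2 and Pnpla2) and the highest of Vldlr, while the highest knockout values were spread over all 5 mice. In relations with Plin2 within a tissue, 0 of 16 passed by exact permutation, with r from -0.68 (G0s2 in kidney, rho -0.79, adjusted p = 0.549 and 0.619) to 0.53 (Plin4 in liver, adjusted p = 0.549). Between kidney and liver of the same numbered mouse, 0 of 8 relations passed (n = 9 mice, exact permutation), with r from -0.37 (Plin4) to 0.55 (Hsd17b11, rho 0.25, p = 0.0736, adjusted p = 0.589). In both families unadjusted p fell below 0.05 only for the rho of G0s2 with Plin2 in kidney (exact permutation p = 0.0426).

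Other genes of the pathway were taken from lists chosen for function. Over all genes tested, 52.2% had positive log2 fold changes in kidney and 51.3% in liver. Of 23 further coat and growth genes tested in kidney 8 had positive and 15 negative log2 fold changes (median -0.04 against 0.01 over all genes), and in liver 11 and 10 of 21 (median 0.01 against 0.00); none was called. Cidea, a droplet fusion gene of brown fat, stood at 1.12, 6.70, 6.71, 6.69 and 2.72 CPM in knockout and 0.855, 3.38, 1.10, 3.83 and 1.44 CPM in wild-type kidneys (log2 fold change 1.15, SE 0.57, edgeR adjusted p = 0.999), and Plin3 was at -0.14 in kidney and -0.10 in liver. Lipolysis genes split 6 to 9 of 15 in kidney and 4 to 11 of 15 in liver (medians -0.003 and -0.07), with Lipe, hormone-sensitive lipase, at -0.35 and Abhd5 at -0.29 in liver (SE 0.21 and 0.17), neither passing.

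Of the genes of the lipoprotein receptor family and its ligands, 9 were positive and 11 negative in kidney and 8 and 11 in liver, and none was called. Lpl, the lipoprotein lipase, came nearest in kidney (-0.41, SE 0.10, edgeR adjusted p = 0.813), at 645 to 865 CPM in knockouts and 785 to 1072 CPM in wild types. Lrp8, the closest relative of Vldlr, was at -0.46 in kidney (SE 0.28) and did not pass. Of the further hydroxysteroid and retinol dehydrogenases, 4 of 14 were positive in kidney and 9 of 17 in liver, with Dhrs9 (-0.72, SE 0.29) nearest to the threshold in liver and Hsd17b1 (0.95, SE 0.38) in kidney, neither passing (edgeR adjusted p = 1.0 and 0.999).

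Among genes of triacylglycerol synthesis and export, 9 of 15 were positive in liver and none was called. The phosphatidate phosphatase gene Lpin1 stood at 588, 37.7, 279, 701 and 568 CPM in knockout and 76.5, 70.8, 209 and 36.3 CPM in wild-type livers (log2 fold change 2.15, SE 0.85, edgeR adjusted p = 1.0). Its relative Lpin2 was at 499, 214, 382, 574 and 371 against 277, 189, 215 and 98.9 CPM (1.07, SE 0.33, edgeR adjusted p = 0.961). Mouse 14, with the most Vldlr in liver, had the lowest Lpin1 and Lpin2 of the knockout livers. Of the targets of the fatty acid receptor PPARα, 7 of 24 were positive in kidney and 18 of 24 in liver. Their medians were near 0, at -0.03 in kidney and 0.06 in liver, against 0.01 and 0.00 over all genes. Cyp4a12b (-0.52, edgeR adjusted p = 0.934) and Angptl4 (1.29, adjusted p = 1.0) had the smallest p in liver. Targets of LXR, SREBP1 and ChREBP were positive in 11 of 19 in kidney and 8 of 21 in liver, where Fasn (-0.55, SE 0.19) and Srebf1 (-0.60, SE 0.32) had the smallest p and did not pass (edgeR adjusted p = 1.0).

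The genes whose levels moved most like Hsd17b13 and Vldlr between libraries of a tissue were ranked by Pearson r of log2 CPM after removing group means, as a description. For Hsd17b13 these were Ces2e (0.973), Chmp2b (0.973) and Dhrs7b (0.971) across 9 livers and Fam171b (0.948), Il16 (0.945) and 1700101I11Rik (0.937) across 10 kidneys, the latter on few counts. For Vldlr they were D330041H03Rik (0.980), Gm43597 (0.970) and Efna3 (0.960) across livers and Eif3j2 (0.946), Dhx29 (0.945) and Alg10b (0.941) across kidneys. The 99.9th percentile of r over all genes was 0.943 in liver and 0.876 in kidney for Hsd17b13, and 0.919 and 0.920 for Vldlr. Genes named for the highest r lie above that percentile by construction, so it gives a scale and no test. All values share the same libraries and scaling.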

How the data were processed

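The authors deposited raw read counts per gene for kidney and liver libraries of macroH2A1.1 knockout and wild-type mice. Per the submitters' processing notes, Trim Galore, STAR, featureCounts and DESeq2 were used on GRCm38; versions, annotation and strand setting are not given in the sources used here. Identifiers were named with GENCODE mouse release 21 (26417 matched, 89 did not).

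Each comparison was fitted on the deposited counts of all genes with edgeR 4.0.16 in R 4.3.3 (TMM, filterByExpr with a minimum count of 10, robust quasi-likelihood test, Benjamini-Hochberg threshold 0.05). The knockout effect was fitted per tissue, its difference between tissues over all 19 libraries and liver against kidney per genotype. The fits were also run on counts simulated from their own dispersions with known changes added. The outcome is not given here, and it does not show power for the small effects above. Alternatives were DESeq2 1.42.0, its size factors in edgeR, library totals, no filter, omission of each mouse or of mice 16 and 24 together, 1 fit of all libraries and the mouse number as a block. Correlations used log2 CPM with a prior count of 2 and exact permutations within genotype (Python 3.11.15, scipy 1.17.1). Promoters came from RefSeq (GRCm38.p6).

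Members and gene lists were chosen with earlier results of these data known. The 10 members and H2afy are always named, genes of the droplet, lipolysis, lipoprotein receptor and dehydrogenase lists freely, and from other lists those with the smallest p; from marker lists, the most abundant gene or any marker at 0. Adipoq, Cfd, Fabp4, Adrb3, Pparg and the mouse singled out in each group were chosen after their values were seen. Marker lists for stellate, endothelial, macrophage and erythroid cells had no called gene in either knockout comparison. With 1 gene called in kidney and 0 in liver over all genes, this does not show unchanged cell content. In kidney and liver, log2 fold changes were negative for 6 of 6 and 7 of 8 macrophage markers and 7 of 10 and 8 of 10 stellate markers. They were negative for 4 of 8 and 3 of 8 endothelial and 4 of 5 and 3 of 5 erythroid markers, against 47.8% and 48.7% of all genes.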

Additional observations from a re-analysis of the deposited data

Results flagged for a closer look

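Within groups of 4 or 5 libraries, 5 of 40 gene and group combinations had a library far from the others, by a rule that chance meets in about 1 in 20 groups. Vldlr stood at 49.1 CPM in the wild-type kidney of mouse 23, with the next at 61.5 CPM. Plin4 stood at 33.7 CPM in the knockout liver of mouse 13, with the next at 13.6 CPM, and at 17.1 CPM in the wild-type liver of mouse 22, with the next at 8.26 CPM. Plin5 stood at 82.4 CPM in the same wild-type liver of mouse 22, with the next at 54.8 CPM. Pnpla3 stood at 0.444 CPM, on 11 counts, in the knockout liver of mouse 15, with the next at 0.134 CPM.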

How the results depend on the processing

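No droplet gene taken for its function was called for a knockout effect under any alternative. In the tissue contrasts 7 to 10 of the 10 genes, Hsd17b13 and Vldlr included, were called. The main fits called 75.4% of all genes there in wild types and 73.8% in knockouts. With library totals 9 and 10 members were called, and so were 14871 of 17428 and 14117 of 16823 genes. Counts over all genes moved. In kidney 1 gene was called, against 15 with DESeq2, 4 with no filter, 12 without mice 16 and 24, 3 in 1 fit of all libraries, and 1 to 10 with 1 mouse left out (10 without mouse 16, 7 without mouse 24). In liver 0 were called, against 42, 3, 11, 21 and 0 to 7, and for the difference 0 against 8 with DESeq2, 4 without mice 16 and 24, and 0 to 3 with 1 mouse left out. Of the adipocyte marker relations 1 passed without mice 16 and 24.

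Mouse numbers pair libraries weakly: same-mouse r was 0.0493 to 0.311, and 6 of 9 mice correlated best with their own number. With the number as a block, 0 genes were called for the difference, 12779 in the wild-type and 12632 in the knockout tissue contrast, and the difference was -0.049 for Cidec and 0.045 for G0s2. Block fits that include wild types also left out the kidney of mouse 23, which has no liver library here. They changed 2 calls of the droplet genes, both in the wild-type tissue contrast. G0s2 was no longer called (1.35, edgeR adjusted p = 0.105) and Plin4 was (-0.74, adjusted p = 0.0161). Without mouse 23 and with no block, G0s2 was not called either (1.69, edgeR adjusted p = 0.0520), and the difference for Cidec was -0.103.

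Changes of sign were confined to knockout effects that did not pass, to correlations that did not pass, and to Hsd17b11 between tissues with library totals (-0.34 and -0.61; -0.338 and -0.611 from mean levels). Without mice 16 and 24, kidney values were -0.30 for Plin4, -0.32 for Cidec and -0.093 for Pnpla2, and liver values -0.023 for Plin5 and -0.066 for Pnpla2; kidney and liver then correlated at -0.096 for Cidec and -0.137 for Pnpla2, and Plin5 with Plin2 in kidney at 0.055. With library totals, Plin2 in liver correlated at -0.147 with Hsd17b13 and 0.132 with Vldlr. Leaving out 1 mouse gave kidney ranges of -0.090 to 0.0029 for Plin2, -0.21 to 0.29 for Plin4, -0.22 to 0.28 for Cidec, -0.042 to 0.12 for Pnpla2 and -0.25 to 0.19 for Pnpla3. Liver ranges were -0.12 to 0.90 for Plin4, -0.19 to 0.25 for Plin5, -0.78 to 0.37 for G0s2 and -0.0010 to 0.29 for Pnpla2. For the difference they were -0.22 to 0.017 for Plin2, -0.29 to 0.89 for Plin4, -0.36 to 0.038 for Plin5, -0.16 to 0.37 for Cidec, -0.59 to 0.48 for G0s2, -0.023 to 0.24 for Pnpla2 and -1.03 to 0.20 for Pnpla3. The cause was not tested. Depth limits Hsd17b13 in kidney (1 to 34 counts) and Pnpla3 in liver (2 to 11 counts).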
